A study of Mus musculus with 3 samples.

Results

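The genes described here are 10 transcripts of myeloid and antigen-presenting cells, Mmp12, Ccl17, Ccl22, Lpl, Lyz2, Ctse, H2-Aa, H2-Ab1, H2-Eb1 and Cd74, measured in cultures of activated mouse CD4 T cells. They were taken by gene symbol, and 10 of 10 had a row among the 23282 rows of expression values. All 10 passed the filter on low values, which kept 12770 rows. They were selected on earlier results from these same libraries, among them the rank of their change between media, so their own levels, fold changes and standard errors are a description and carry no p-value. CD4 T cells came from the spleen and lymph nodes of C57BL/6 mice (C57BL/6J in the methods, young adult females, with no genetic modification named), were isolated with magnetic beads or a cell sorter, and were activated with antibodies to CD3 and CD28 at 2 µg/ml for 72 h. The 3 groups differed in the medium. CM was RPMI-1640 with 10% fetal bovine serum, DM was made from RPMI without amino acids and dialyzed serum, and DM+Met was DM with 30 µM methionine added back. Each medium had 2 sequenced libraries. The methods describe independent samples, but the labels do not say whether the files of a medium are separate cultures, so the spread between libraries may be partly technical.

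Class II molecules of the major histocompatibility complex display peptides to CD4 T cells. H2-Aa encodes the alpha chain and H2-Ab1 the beta chain of I-A, H2-Eb1 encodes the beta chain of I-E, and Cd74 encodes the invariant chain that escorts class II molecules through the cell. Dendritic cells, B cells and macrophages carry most of this system, under the control of the transactivator encoded by Ciita. Lyz2 encodes the lysozyme of macrophages and granulocytes. Mmp12 encodes macrophage elastase, Lpl the lipase that releases fatty acids from lipoproteins, and Ccl17 and Ccl22 a pair of chemokines that share the receptor CCR4. Ctse encodes cathepsin E, an aspartic protease found in antigen-presenting cells. A culture of isolated CD4 T cells can keep a few accessory cells, and in RNA from a whole culture fewer cells of a type and less RNA per cell cannot be told apart. The question was whether Mmp12, Ccl17 and Lpl moved together with the class II and Lyz2 transcripts across the media.

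Sequence upstream of the start is shown for Ccl17 and Mmp12, which were higher in dialyzed media than in CM, and for the class II genes H2-Aa and H2-Eb1, which were not, so that their control regions can be read beside their levels. RefSeq windows on build GRCm38.p6 matched 6 of the 10 members, and Lpl, Ctse, H2-Ab1 and Cd74 had none. The 160 bases before the annotated start are given 5′ to 3′ on the gene's strand, with capitals marking matches to the motifs searched.
Ccl17, chr8:94810293-94810452, plus strand: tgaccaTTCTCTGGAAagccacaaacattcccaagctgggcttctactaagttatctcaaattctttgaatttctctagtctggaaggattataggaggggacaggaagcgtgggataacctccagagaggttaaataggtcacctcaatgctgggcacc
Mmp12 first start, chr9:7344237-7344396, plus strand: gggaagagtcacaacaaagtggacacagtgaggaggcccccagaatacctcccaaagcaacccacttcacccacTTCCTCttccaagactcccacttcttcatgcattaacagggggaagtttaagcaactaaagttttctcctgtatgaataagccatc
Mmp12 second start, chr9:7347214-7347373, plus strand: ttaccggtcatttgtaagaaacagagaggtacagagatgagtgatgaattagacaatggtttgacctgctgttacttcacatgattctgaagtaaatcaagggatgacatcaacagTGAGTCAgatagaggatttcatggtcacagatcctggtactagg
H2-Aa, chr17:34287824-34287983, minus strand: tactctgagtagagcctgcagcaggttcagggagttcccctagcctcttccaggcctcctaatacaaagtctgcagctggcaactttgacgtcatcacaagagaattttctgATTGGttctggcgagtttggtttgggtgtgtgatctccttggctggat
H2-Eb1, chr17:34305707-34305866, plus strand: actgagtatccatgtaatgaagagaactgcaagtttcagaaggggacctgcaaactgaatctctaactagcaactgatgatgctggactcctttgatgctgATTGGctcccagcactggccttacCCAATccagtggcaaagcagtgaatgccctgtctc

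The motifs were searched on both strands over the 250 bases before each start. The Y box of class II promoters, ATTGG, was found in H2-Aa at positions -48 to -44 and in H2-Eb1 at -59 to -55 and, on the other strand, at -35 to -31, where it reads CCAAT. Here position -1 is the base before the start. It was in 33.8% of all 32851 windows. The palindrome bound by STAT6, TTCNNNNGAA, was found in Ccl17 at -154 to -145 and in 5.85% of all windows. An AP-1 site, TGANTCA, lay at -44 to -38 before the second start of Mmp12 and in 6.75% of all windows, and a PU.1-type core, GAGGAA, lay on the other strand at -86 to -81 before its first start and in 23.3%. That core was also in Ccl17 at -248 to -243, and a core of the X box, CCNAGNNAC, which 14.5% of windows held, was found in Ccl17 at -196 to -188 and in H2-Aa at -180 to -172, upstream of the bases shown. No match was found in the windows of Ccl22 and Lyz2, and no matches in the members overlapped each other. A match is a match of letters only. In the GENCODE M21 annotation of the same build, the windows of Ccl17 and H2-Aa held no gene, the first window of Mmp12 reached 16 bases into its first exon, the second lay inside the Mmp12 gene outside its exons, and the window of H2-Eb1 overlapped an exon of the antisense transcript Gm20513.

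Between 8504742 and 12377285 reads per library were recovered from the values. A count of 0 still allows 3 reads, which lay at 0.323 to 0.469 on the log2 scale, and this limit covers the error of counting alone, because no molecular identifiers were used to count molecules. The 45S ribosomal precursor row Rn45s took 31.0% to 38.3% of the reads in CM and DM and 15.5% and 20.1% in DM+Met. Levels are log2(CPM + 1), with CPM the reads of a gene scaled to a common library size by TMM, and fold changes on this scale understate the change of genes with few reads. The libraries carried the T cell transcripts that the label asks for, with 1584 to 3312 reads of Cd4 and 690 to 1801 of Cd3e, and Cd8a, a marker of CD8 T cells, was read 82 to 320 times.

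Mmp12, Ccl17 and Lpl were read 0 to 63 times per library in CM and 240 to 1238 times in both dialyzed media. Mmp12 (ENSMUSG00000049723.14, chr9:7344381-7369499, plus strand) had 63 and 0 reads with CM, 1070 and 828 with DM, and 1238 and 1127 with DM+Met. On the log2 scale these were 3.03 and 0, 6.78 and 6.21, and 6.71 and 6.58. Every dialyzed library lay above both CM libraries, and the DM and DM+Met libraries overlapped. The fitted log2 fold change was 4.98 ± 0.746 (SE) from CM to DM and 0.15 ± 0.746 from DM to DM+Met. The CM libraries disagreed, so the first value was 3.47 without CM library 2 and 6.50 without CM library 1. Mmp1b overlaps exons of Mmp12 on the opposite strand and was at 0 reads in all 6 libraries, and where those exons overlap, reads of the pair cannot be told apart without a stated use of strand.

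Ccl17 (ENSMUSG00000031780.2, chr8:94810453-94812036, plus strand) had 1 read in CM library 1 and 0 in CM library 2, against 263 and 277 with DM and 344 and 277 with DM+Met. Its log2 levels were 0.16 and 0 with CM, 4.80 and 4.67 with DM, and 4.90 and 4.60 with DM+Met. The dialyzed media overlapped each other, and the gap to CM was far wider than the spread within any medium. Summed over libraries, 540 reads in DM against 1 in CM gave a depth-corrected ratio of 424 with a 95% exact counting interval of 75.8 to 16800. The ratio of DM+Met to CM was 432, with an interval of 77.2 to 17100. Both intervals cover counting error only and leave out the spread between libraries. The fitted change was 4.66 ± 0.466 (SE) from CM to DM and 0.02 ± 0.466 from DM to DM+Met, and the first of these depends on the 1 added before the logarithm.

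Lpl (ENSMUSG00000015568.16, chr8:68880491-68907448, plus strand) had 0 and 10 reads with CM, 342 and 357 with DM, and 240 and 476 with DM+Met. The log2 levels were 0 and 1.19, then 5.17 and 5.02, then 4.40 and 5.36. All 4 dialyzed libraries were above CM, and the DM+Met pair enclosed the DM pair. The fitted change was 4.50 ± 0.544 (SE) from CM to DM and -0.22 ± 0.544 from DM to DM+Met, and the second turned to 0.14 when library totals replaced the TMM scaling.

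Ccl22, which lies near Ccl17 on the same chromosome (ENSMUSG00000031779.3, chr8:94745590-94751699, plus strand), was already present in CM. It had 120 and 157 reads with CM, 302 and 401 with DM, and 779 and 706 with DM+Met, or log2 levels of 3.87 and 4.40, 4.99 and 5.19, and 6.05 and 5.91. The 3 media formed 3 separate steps with no overlap, which Ccl17 did not show. The fitted change was 0.95 ± 0.288 (SE) from CM to DM and 0.89 ± 0.288 from DM to DM+Met. Between the chemokines, Ccl22 reads per Ccl17 read were 1.15 and 1.45 with DM and 2.26 and 2.55 with DM+Met. These libraries read the 3′ end of a transcript, so reads were not divided by length. Ccr4, the receptor of both, had 312 and 286 reads with CM, 178 and 339 with DM, and 463 and 410 with DM+Met, and it did not pass the test in DM against CM (-0.61, adjusted p = 0.202 in limma).

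Lyz2 (ENSMUSG00000069516.8, chr10:117277331-117282321, minus strand) had few reads, 3 and 15 with CM, 77 and 85 with DM, and 50 and 50 with DM+Met. Its log2 levels were 0.42 and 1.55, 3.15 and 3.09, and 2.38 and 2.38. The order was DM, then DM+Met, then CM, without overlap. The fitted change was 2.13 ± 0.592 (SE) from CM to DM, 1.57 without CM library 1 and 2.69 without CM library 2, and -0.74 ± 0.592 from DM to DM+Met. Its close paralog Lyz1 had 0 to 20 reads per library, and reads that fit both genes could have been assigned to either row.

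**Figure D1:**
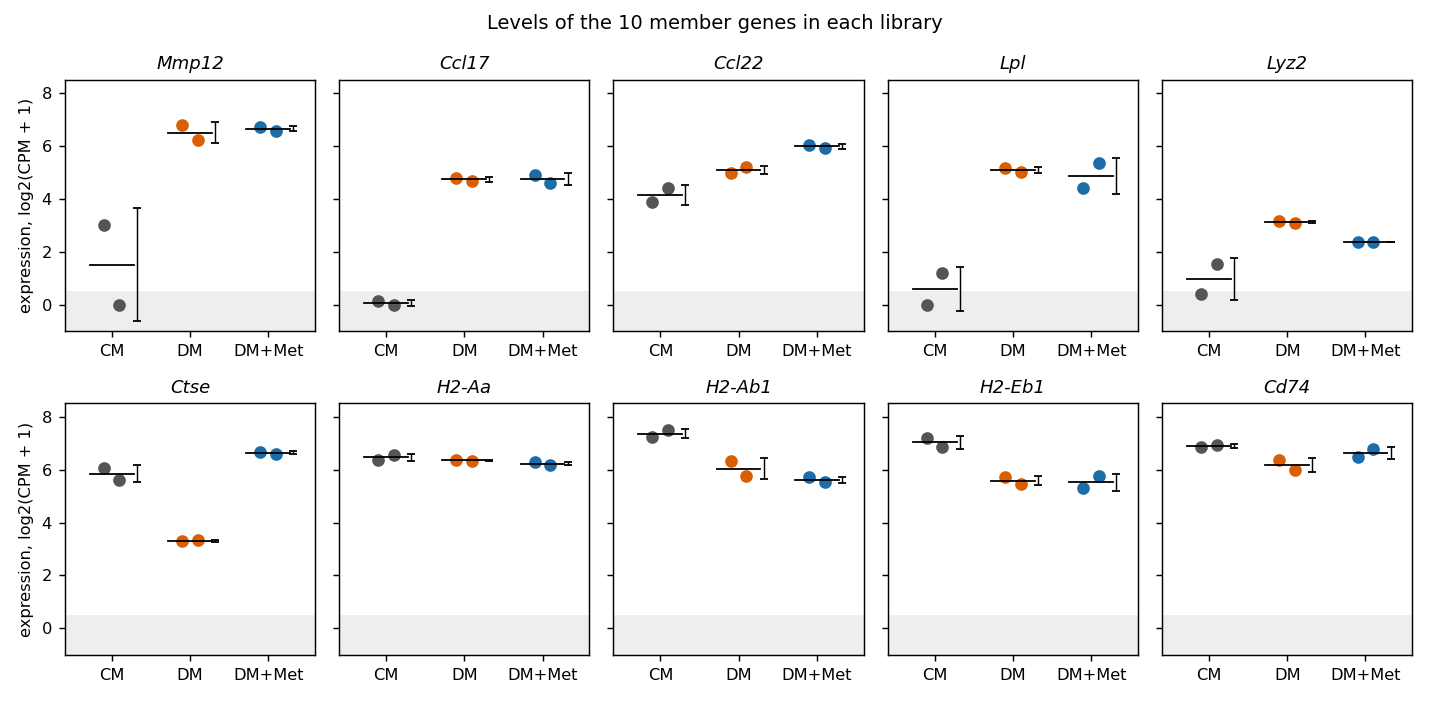
Expression of the 10 genes in each library, as log2(CPM + 1) on the vertical axis, for CM, DM and DM+Met on the horizontal axis. Each point is 1 library, the horizontal line is the mean of 2 libraries, the bar beside it is ± SD, and grey marks values up to 0.469, the highest level that 3 reads gave in any library. Mmp12, Ccl17 and Lpl sit between 0 and 3.03 in CM and between 4.40 and 6.78 in the dialyzed media, while H2-Ab1 and H2-Eb1 sit lower in the dialyzed media than in CM.

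The class II transcripts lay lower in dialyzed media than in CM or near their CM level. H2-Ab1 (ENSMUSG00000073421.6, chr17:34257689-34269419, plus strand) had log2 levels of 7.23 and 7.48 with CM, 6.32 and 5.76 with DM, and 5.70 and 5.54 with DM+Met. H2-Eb1 (ENSMUSG00000060586.11, chr17:34305867-34316674, plus strand) had 7.20 and 6.86 with CM, 5.71 and 5.46 with DM, and 5.29 and 5.75 with DM+Met. For both beta chains each dialyzed library lay below both CM libraries, with fitted changes from CM to DM of -1.32 ± 0.233 (SE) for H2-Ab1 and -1.44 ± 0.242 for H2-Eb1. From DM to DM+Met their changes were -0.42 ± 0.233 and -0.07 ± 0.242, and the second changed sign, to 0.29, with library totals.

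H2-Aa (ENSMUSG00000036594.15, chr17:34282744-34287823, minus strand) stayed near its CM level, unlike its beta chain partner. Its log2 levels were 6.37 and 6.56 with CM, 6.36 and 6.33 with DM, and 6.28 and 6.18 with DM+Met. The dialyzed libraries lay just below CM, with fitted changes of -0.12 ± 0.191 (SE) in DM and -0.24 ± 0.191 in DM+Met. Those signs depended on the scaling, at 0.036 in DM with library totals that leave out Rn45s and 0.15 in DM+Met with library totals. Reads of H2-Aa per read of H2-Ab1 were 0.546 and 0.526 with CM, 1.03 and 1.50 with DM, and 1.50 and 1.57 with DM+Met, so the balance of the I-A chains differed between CM and the dialyzed media. Reads of H2-Aa per read of H2-Eb1 were 0.560 and 0.813 in CM and 1.36 to 2.00 in the dialyzed libraries.

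Cd74 (ENSMUSG00000024610.15, on chromosome 18) had log2 levels of 6.84 and 6.95 with CM, 6.35 and 6.00 with DM, and 6.47 and 6.78 with DM+Met. Every dialyzed library was below CM, and the DM+Met libraries lay above those of DM. The fitted change was -0.72 ± 0.207 (SE) in DM against CM, 0.45 ± 0.207 in DM+Met against DM and -0.27 ± 0.207 in DM+Met against CM, the last turning to 0.12 with library totals. The summed level of the 3 class II genes and Cd74 was 500 ± 13.2 CPM (SD, n = 2) with CM, 265 ± 37.7 with DM and 266 ± 17.6 with DM+Met.

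Ctse (ENSMUSG00000004552.16, chr1:131638306-131675505, plus strand) followed neither group. It had 580 and 374 reads with CM, 86 and 102 with DM, and 1212 and 1143 with DM+Met, or log2 levels of 6.07 and 5.61, 3.29 and 3.32, and 6.68 and 6.60. The lowest medium was DM and the highest DM+Met, with no overlap between any pair of media. The fitted change was -2.53 ± 0.264 (SE) from CM to DM, 3.33 ± 0.264 from DM to DM+Met and 0.80 ± 0.264 from CM to DM+Met. Its response to methionine was part of the reason it was selected.

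**Figure D2:**
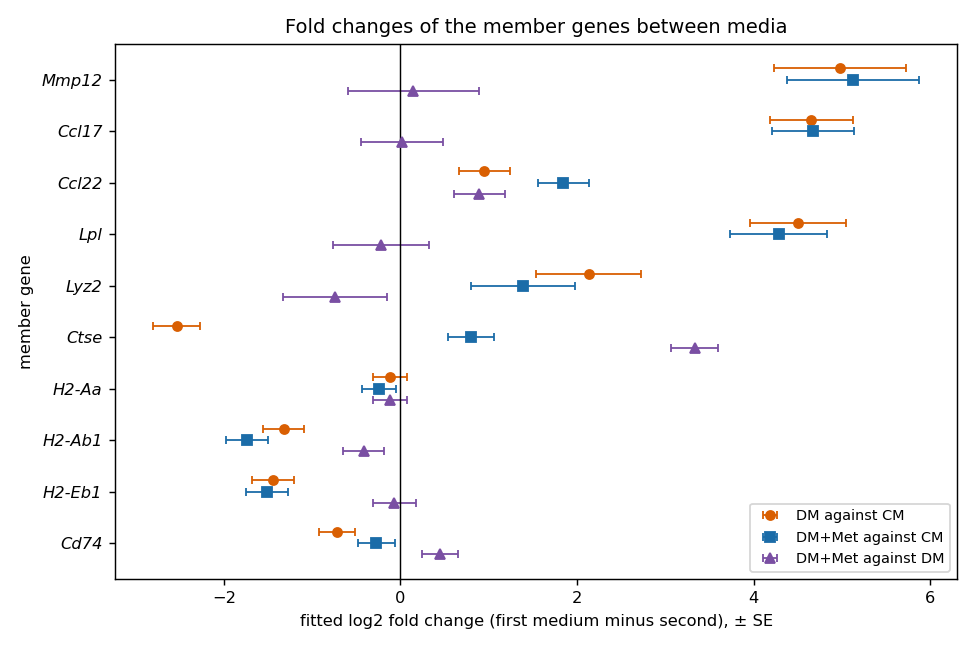
Fitted log2 fold changes of the 10 genes on the horizontal axis, first medium minus second, with bars of ± SE from the fit over 6 libraries. Circles are DM against CM, squares DM+Met against CM and triangles DM+Met against DM. Mmp12, Ccl17 and Lpl lie between 4.28 and 5.13 against CM and near 0 between the dialyzed media, H2-Ab1 and H2-Eb1 lie between -1.74 and -1.32 against CM, and Ctse is the only gene whose change after methionine exceeds 1.

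Read against the whole table, 9 of the 10 members were called in DM against CM at a limma adjusted p below 0.05, where 16.9% of all tested rows were called. Of these, 5 (Mmp12, Ccl17, Ccl22, Lpl and Lyz2) were higher, beside 7.80% of all rows, and 4 (Ctse, H2-Ab1, H2-Eb1 and Cd74) were lower, beside 9.07%. In DM+Met against DM the background was 0.0548% of rows, 0.0392% higher and 0.0157% lower, and the 1 member called was Ctse, higher. For DM+Met against CM it was 15.3%, with 6.92% higher and 8.36% lower, and 6 members were called, Mmp12, Ccl17, Ccl22 and Lpl higher and H2-Ab1 and H2-Eb1 lower. Because these contrasts chose the members, nothing is read from the counts, nor from how often a call was kept in the alternative settings below. Ccl17, at 0.114 and 0 CPM in CM, passed the filter through its dialyzed libraries alone, so the direction of its calls was set by entry. Mmp12 (7.17 and 0 CPM in CM), Lpl (0 and 1.28) and Lyz2 (0.342 and 1.92) also needed a dialyzed library to pass. The median log2 fold change of the members was 0.416, -0.026 and 1.10 in the 3 comparisons, beside 0.066, 0.009 and 0.061 over all tested rows. The comparisons share libraries, so each repeats part of another. The calls of Ccl22, Lyz2 and Cd74 in DM against CM were kept in 3 of 16, 6 of 15 and 5 of 16 alternative settings, while that of Ccl17 was kept in 15 of 15 and that of Ctse in 16 of 16. Those of Mmp12 and Lpl were kept in 13 of 15 each, lost for Mmp12 without either DM library and for Lpl without DM library 1 and with voom on the recovered reads. Those of H2-Ab1 and H2-Eb1 were kept in 12 and 13 of 16, lost for H2-Ab1 without CM library 1, CM library 2 or DM library 2 and without an intensity trend, and for H2-Eb1 without CM library 1 or either DM library. Against CM, the DM+Met calls were kept in 15 of 15 settings for Ccl17, 10 of 15 for Mmp12 (lost without any 1 of the DM and DM+Met libraries and with only the media compared), 13 of 15 for Lpl (lost without DM+Met library 2 and with voom), 14 of 16 for Ccl22 (lost without either DM+Met library), 15 of 16 for H2-Ab1 (lost without DM+Met library 2) and 14 of 16 for H2-Eb1 (lost without CM library 1 or DM+Met library 1). The call of Ctse in DM+Met against DM was kept in 8 of 16 and was lost without any 1 of the 6 libraries.

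To put the genes on a common footing, each was expressed per 1000 CPM of the summed class II genes and Cd74 in the same library. Mmp12 was at 14.6 and 0 with CM, 374 and 306 with DM, and 410 and 340 with DM+Met. Ccl17 was at 0.233 and 0 with CM, 91.9 and 103 with DM, and 114 and 83.7 with DM+Met. Lpl was at 0 and 2.52 with CM, 119 and 132 with DM, and 79.4 and 144 with DM+Met. These 3 genes were thus higher in dialyzed media relative to class II as well as relative to all transcripts, and the summed class II level was itself lower there. Lyz2 was at 0.697 and 3.78 with CM, 26.9 and 31.5 with DM, and 16.5 and 15.1 with DM+Met, higher than CM in each dialyzed library but lower with methionine than without. Ctse was at 135 and 94.1 with CM, 30.0 and 37.8 with DM, and 401 and 345 with DM+Met.

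Ratios among the genes that were higher in dialyzed media show how closely they kept together. In the 4 dialyzed libraries Mmp12 reads per Ccl17 read were 4.07, 2.99, 3.60 and 4.07, and Mmp12 reads per Lpl read were 3.13, 2.32, 5.16 and 2.37. CM library 1 had 63 reads of Mmp12, 1 of Ccl17 and 0 of Lpl, or 63.0 Mmp12 reads per Ccl17 read. CM library 2 had 0, 0 and 10 reads of these genes. Mmp12 reads per Lyz2 read were 13.9 and 9.74 with DM and 24.8 and 22.5 with DM+Met, and 21.0 in CM library 1. Mmp12 and Ccl17 thus kept a ratio of 2.99 to 4.07 across the dialyzed libraries, but not in CM library 1, where the ratio rested on 1 Ccl17 read. The ratio of Mmp12 to Lyz2 was higher in both DM+Met libraries than in both DM libraries. Across media, Mmp12, Ccl17 and Lpl shared with Lyz2 the higher level in dialyzed medium, and the class II beta chains and Cd74 lay on the other side of CM. Over the 6 libraries the mean standardised profile of Mmp12, Ccl17 and Lpl correlated with Lyz2 at r = 0.858, with Ccl22 at 0.832, with H2-Aa at -0.759, with Cd74 at -0.703, with H2-Ab1 at -0.942, with H2-Eb1 at -0.947 and with Ctse at -0.285. These values describe 6 libraries that share 3 media, and the step from CM to dialyzed medium dominates each of them.

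**Figure D3:**
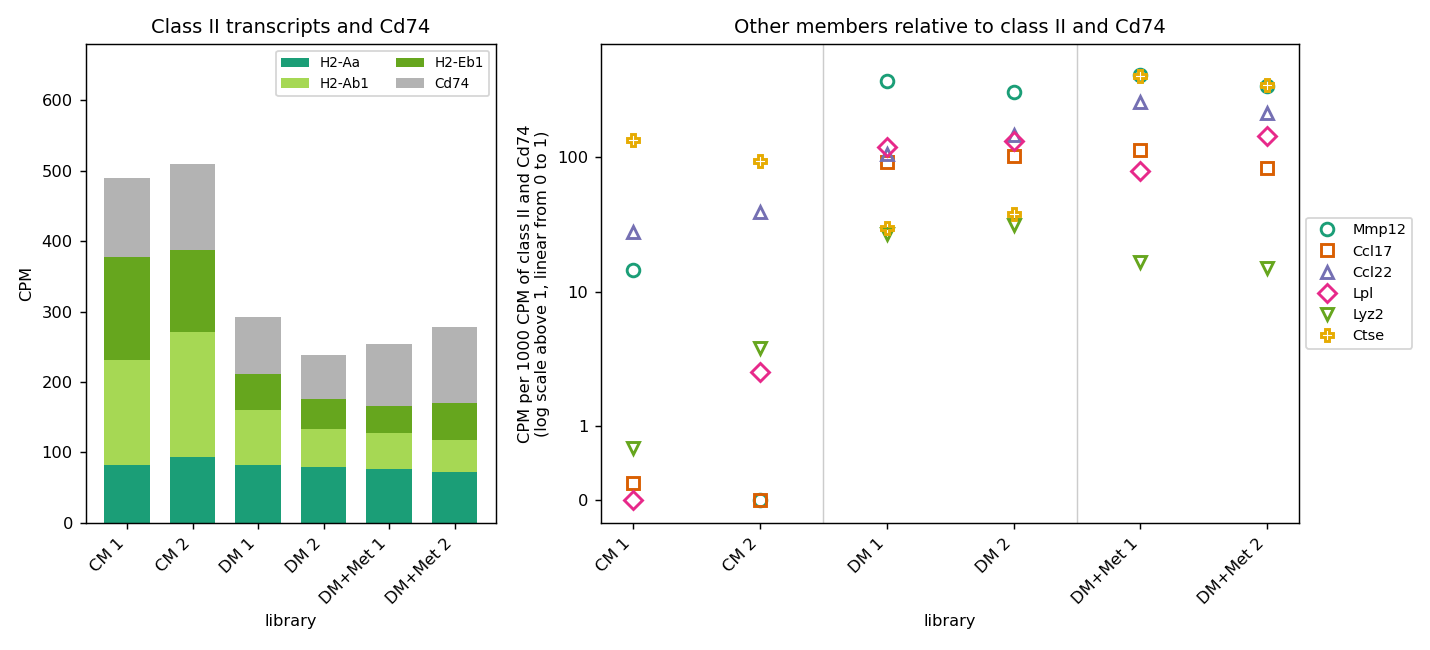
Left, summed CPM of H2-Aa, H2-Ab1, H2-Eb1 and Cd74 in each library as stacked bars from 0. Right, CPM of 6 other members per 1000 CPM of that sum in the same library, on an axis that is logarithmic above 1 and linear from 0 to 1, with grey lines between the media. The sums fall from 490 and 509 CPM in CM to between 238 and 292 in the dialyzed libraries, and Mmp12, Ccl17, Ccl22, Lpl and Lyz2 are higher relative to that sum in each dialyzed library.

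Genes of the same pathways were examined in lists that were written with the earlier results known, and the lists were not tested as sets. Their counts of calls stand beside the shares of all tested rows. These were 16.9% in DM against CM, 0.0548% in DM+Met against DM and 15.3% in DM+Met against CM. Of 14 partners and regulators of class II, 13 were tested. In DM against CM, 0 rose and 3 fell, at a median of -0.364 beside 0.066 over all tested rows, namely H2-DMb1 (-2.16 ± 0.566 SE, adjusted p = 0.0285) and H2-DMa (-1.16 ± 0.277, adjusted p = 0.0202), subunits of the molecule that loads peptide onto class II, and Ifi30 (-0.83, adjusted p = 0.0458), a reductase that unfolds antigens. H2-DMb1 had 172 and 170 reads with CM, 60 and 26 with DM, and 68 and 35 with DM+Met. Both dialyzed media thus lay below CM for H2-DMb1, as they did for the H2-Ab1 and H2-Eb1 chains. In DM+Met against CM, H2-DMb1 (-2.08, adjusted p = 0.0359) and H2-Ob (-1.61, adjusted p = 0.0431), a subunit of the modulator of H2-DM, fell, and Ctss (0.99, adjusted p = 0.0426), the protease that trims the invariant chain, and Rfxank (1.63, adjusted p = 0.0434), a subunit of the complex that binds class II promoters, rose. Between DM+Met and DM limma called 0 of them, with 2 at an unadjusted p below 0.05 and 0 called by voom. Ciita was read 0, 14, 0, 13, 6 and 15 times in CM, DM and DM+Met in turn, and a difference was not detectable at this depth. The calls of H2-DMb1, Ifi30, H2-Ob and Rfxank were lost whichever library was left out. That of H2-DMa was kept without DM library 1 alone, and that of Ctss was lost without any 1 of the CM and DM+Met libraries.

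Of 16 myeloid chemokines and Ccr4, 13 were tested, and 4 rose in DM against CM while 0 fell (7.80% and 9.07% of all tested rows), at a median of 0.919. Ccl6 (3.21 ± 0.335 SE, adjusted p = 4.57e-04) and Ccl9 (2.99 ± 0.381, adjusted p = 0.00128), chemokines of myeloid cells, had the lowest adjusted p of the list. Ccl6 was read 61 and 101 times with CM, 1247 and 826 with DM, and 1482 and 1498 with DM+Met. Ccl9 was read 23 and 25 times with CM, 349 and 286 with DM, and 426 and 560 with DM+Met. Both had the step between CM and the dialyzed media that Mmp12 had. From DM to DM+Met their changes, 0.37 and 0.44, did not pass (adjusted p = 0.789 and 0.776). Against CM, DM+Met gave 3.58 (adjusted p = 1.84e-04) for Ccl6 and 3.43 (adjusted p = 4.56e-04) for Ccl9, and these calls were kept in every fit without 1 library. The neutrophil chemoattractant Cxcl2 (2.66, adjusted p = 0.00717, lost without either DM library) and Ccl3 (2.18, adjusted p = 0.0267, kept only without CM library 1) also rose in DM.

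Few markers of macrophages were called. Of 25 monocyte and macrophage markers, 24 were tested and limma called 0 in DM against CM, where 16.9% of all tested rows were called. There 5 of the list were at an unadjusted p below 0.05 and 0 were called by voom, at a median of 0.452. In DM+Met against CM, where 15.3% of all tested rows were called, the list had 1 call. It was the scavenger receptor Msr1 (2.22, adjusted p = 0.0281, lost without any 1 of the CM and DM+Met libraries). Msr1 had 6 and 0 reads with CM, 33 and 36 with DM, and 65 and 56 with DM+Met. It passed the filter through its dialyzed libraries alone, so its adjusted p is a description only. The summed level of the list was 146 and 122 CPM with CM, 172 and 156 with DM, and 220 and 261 with DM+Met. Its defining markers were low. Csf1r, the receptor for macrophage colony-stimulating factor, had 19 and 28 reads with CM, 144 and 63 with DM, and 1 and 107 with DM+Met. Cd68 had 92 and 54, 130 and 112, and 222 and 203, C1qa 32 and 15, 40 and 11, and 25 and 30, and Adgre1 6 and 0, 0 and 28, and 0 and 27. The part of remaining macrophages in the levels of Mmp12, Ccl17, Lpl and Lyz2 was not tested.

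Of 18 genes of alternatively activated or lipid-laden macrophages, 15 were tested, with 3 higher and 2 lower in DM against CM (7.80% and 9.07% of all tested rows) at a median of 0.42. The glycoprotein gene Gpnmb (2.94 ± 0.795 SE, adjusted p = 0.0320) had 3 and 86 reads with CM, 289 and 341 with DM, and 502 and 447 with DM+Met. Its change was 1.36 without CM library 1, and 4.52 without CM library 2, and only the fit without CM library 2 kept the call. Chil3 (2.30, adjusted p = 0.0256), a chitinase-like secreted protein, had 9 and 0 reads with CM, 52 and 77 with DM, and 129 and 113 with DM+Met, and its call was lost whichever library was left out. The lectin gene Mgl2 (adjusted p = 0.0277, lost without any 1 of the CM and DM+Met libraries) had 0 reads in both CM libraries, 28 and 43 with DM, and 38 and 37 with DM+Met, at least 8.66-fold higher in DM when each CM library is set to 3 reads. Mgl2 passed the filter through its dialyzed libraries alone. The direction of its test was thus set by entry, and its adjusted p is a description only. All 3 genes were also called in DM+Met against CM, Chil3 at 2.97 (adjusted p = 0.00851), Gpnmb at 3.34 (adjusted p = 0.0201) and Mgl2 at an adjusted p of 0.0327. There Gpnmb stood at 1.76 without CM library 1 and 4.92 without CM library 2, and its call was lost without any 1 of the DM and DM+Met libraries. The call of Chil3 was lost without CM library 2 or either DM+Met library, and that of Mgl2 without any 1 of the CM and DM+Met libraries. The lower genes were Pparg, a lipid-sensing nuclear receptor (-2.69, adjusted p = 0.0281, lost whichever library was left out), and Fabp5, a fatty acid carrier that T cells also express (-0.98, adjusted p = 0.0219). Pparg had 74 and 37 reads with CM, 3 and 0 with DM, and 1 and 33 with DM+Met. It could not pass the filter without its CM libraries, so its adjusted p is a description only. Retnla was at 0 in all 6 libraries.

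Of 18 dendritic cell markers, 13 were tested. In DM against CM 3 rose and 1 fell (7.80% and 9.07% of all tested rows) at a median of 0.686. The risen genes were Cd83 (1.43, adjusted p = 0.0230, and 0.94 without CM library 1), Fscn1 (1.22, adjusted p = 0.0114), an actin bundler of mature dendritic cells, and the homing receptor Ccr7 (0.77, adjusted p = 0.00813). Activated or naive T cells also express Cd83 and Ccr7. The costimulatory ligand Cd86 fell (-2.05, adjusted p = 0.0109), from 280 and 175 reads with CM to 62 and 58 with DM, and it had 189 and 129 with DM+Met. Cd83, Fscn1 and Ccr7 were higher in DM+Met against CM as well, and Batf3 was lower (-1.45, adjusted p = 0.0361). In DM+Met the call of Batf3 was lost whichever library was left out, and that of Cd83 was kept only without CM library 2. Those of Fscn1 and Ccr7 were lost there without any 1 of the CM and DM+Met libraries. The summed level of the list was 494 and 492 CPM with CM, 787 and 629 with DM, and 757 and 709 with DM+Met. Among defining markers, Itgax had 42 and 23 reads with CM, 89 and 55 with DM, and 104 and 192 with DM+Met, each dialyzed library above CM. Flt3 had 0 to 68 reads and Zbtb46 0 to 78. None of Itgax, Flt3 and Zbtb46 was called, and Clec9a and Cd209a were at 0 in all 6 libraries. Except for Ccr7, which was lost without either CM library, each of these calls in DM was lost in 5 of 6 fits that left out 1 library. The part of dendritic cells in these values was not tested.

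B cells also carry class II. Of 16 markers, 14 had a row and 12 were tested. The summed level was 175 and 165 CPM with CM, 149 and 195 with DM, and 139 and 157 with DM+Met. The sums of DM overlapped those of CM, and both sums of DM+Met lay below both of CM. The median of the list was -0.412 in DM against CM and -0.463 in DM+Met against CM, beside 0.066 and 0.061 over all tested rows. Cd79a had 89 and 51 reads with CM, 56 and 76 with DM, and 70 and 58 with DM+Met. Ms4a1 had 80 and 43, 144 and 179, and 179 and 209, with each dialyzed library above CM. Neither of these markers was called, and Pax5 was at 0 in all 6 libraries. Fcer2a, the low-affinity IgE receptor (3.05, adjusted p = 0.0121), and the complement receptor Cr2 (2.87, adjusted p = 0.0197) rose in DM against CM, where 7.80% of all tested rows rose. Set against CM, DM+Met had Fcer2a (2.30, adjusted p = 0.0395, and 1.44 without CM library 2) higher and Cd22 (-2.08, adjusted p = 0.0273) lower. Their calls were each lost in 4 or more of the 6 fits without 1 library. The part of B cells in the class II levels was not tested.

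**Figure D4:**
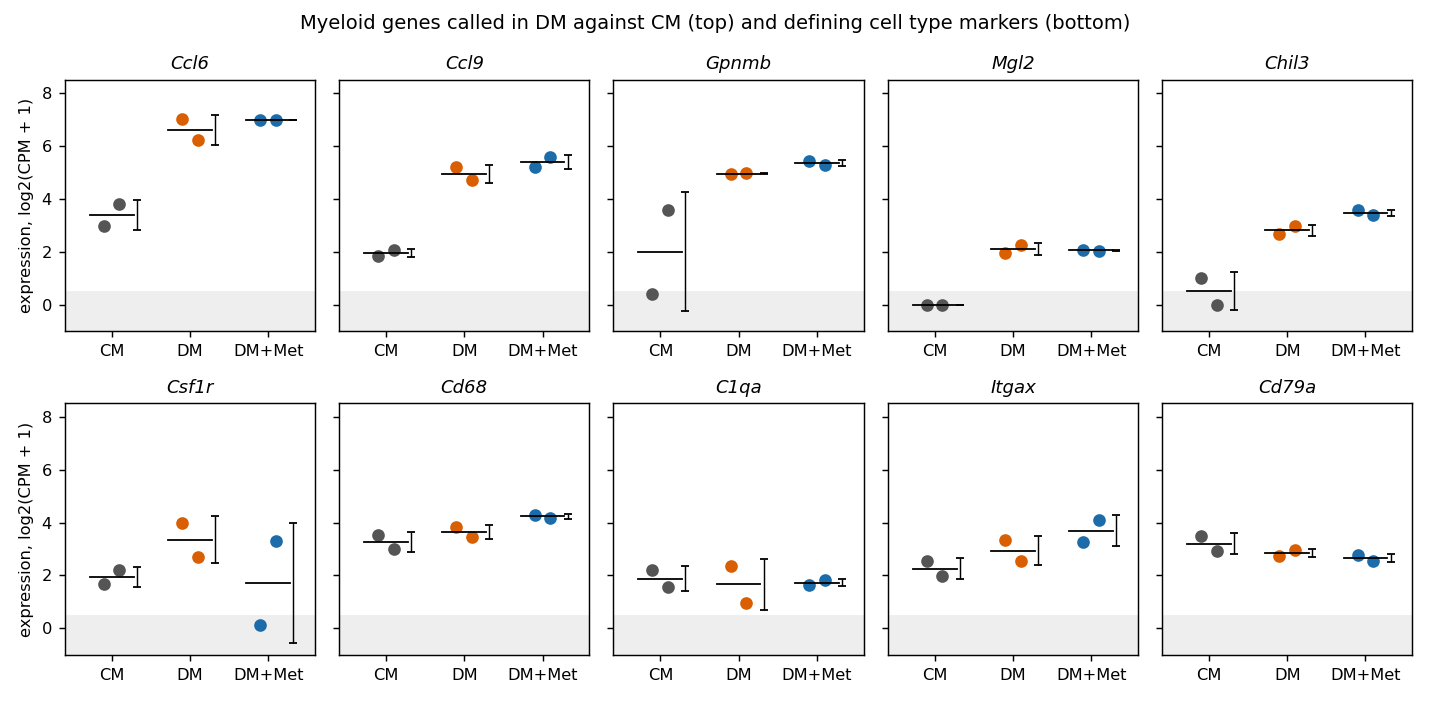
Expression in each library as log2(CPM + 1), for the 3 media on the horizontal axis, of 5 myeloid genes called higher in DM against CM (upper panels) and 5 defining markers of macrophages, dendritic cells and B cells (lower panels). Pparg and Fabp5, which were called lower in DM against CM, are not drawn. Nor is the B cell marker Ms4a1, which lay above CM in each dialyzed library and was not called. Points are libraries, lines are means of 2 libraries, bars are ± SD, and grey marks values up to 0.469. Ccl6, Ccl9, Gpnmb, Mgl2 and Chil3 are higher in each dialyzed library than in CM, while the media overlap for C1qa, CM and DM overlap for Cd79a, and Csf1r spreads widely within DM+Met. Itgax also lies above CM in each dialyzed library, and Cd68 lies above CM in both DM+Met libraries and overlaps it in DM. Neither Itgax nor Cd68 was called.

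The remaining lists concern the families of single members and the signals that act on myeloid cells. Of 18 matrix metalloproteinases and inhibitors other than Mmp12, 13 were tested. The inhibitor Timp3 rose in DM, with 0 reads in both CM libraries and 118 and 31 in DM (adjusted p = 0.0212). Timp3 passed the filter through its DM libraries alone, so its adjusted p is a description only. With CM libraries at 3 reads it was at least 19.2-fold higher by the mean of DM and at least 7.12-fold by DM library 2 alone, and DM+Met had 11 and 8 reads. The collagenase Mmp13 rose in DM+Met against CM (2.15, adjusted p = 0.0249, from 16 and 11 reads to 105 and 151). Of 13 partners of lipoprotein lipase 8 were tested, and limma called 0 in any comparison, with 1, 0 and 1 at an unadjusted p below 0.05 and 0 called by voom. Of 13 cathepsins other than Ctse and Ctss, 11 were tested. Ctsw, a protease of cytotoxic lymphocytes (-2.73, adjusted p = 0.00719), and Ctsa (-1.03, adjusted p = 0.0175) fell in DM against CM, where 9.07% of all tested rows fell. Ctsw alone passed in DM+Met against CM (-1.84, adjusted p = 0.0390). Between DM+Met and DM, where Ctse stood at 3.33, limma called 0 of the 11, with 1 (Ctsa) at an unadjusted p below 0.05 and 0 called by voom. Each of these calls was lost without at least 1 library, that of Ctsw in DM without either CM library, those of Timp3 in DM, and of Mmp13 and Ctsw in DM+Met, without any 1 of the CM and DM+Met libraries, and that of Ctsa whichever was left out.

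Among 12 cytokines, receptors and transducers through which T cells act on myeloid cells, 11 were tested. Tnf rose (2.42 ± 0.277 SE, adjusted p = 7.46e-04), from 88 and 66 reads with CM to 595 and 538 with DM and 767 and 704 with DM+Met, and kept its call in every fit without 1 library. Il10, which restrains antigen-presenting cells, fell (-4.49 ± 0.711, adjusted p = 0.00328), from 372 and 205 reads with CM to 0 and 15 with DM and 46 and 7 with DM+Met, a call lost without CM library 1 or DM library 1. The shared receptor chain Csf2rb rose (1.97, adjusted p = 0.0198, lost whichever library was left out). Il4 and Il13, inducers of Ccl17 and Ccl22 in myeloid cells, had 8 to 41 and 34 to 133 reads and were not called, and Csf2 had 0 to 19. The list also gave, between DM+Met and CM, Stat6 (0.63, adjusted p = 0.0465, lost whichever library was left out) higher and Il4ra (-0.55, adjusted p = 0.0467) lower.

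Beside these, Bcl11b, a transcription factor of T cells, was higher in DM (1.77, adjusted p = 9.7e-05), and the summed level of 14 T cell markers was 2871 and 3107 CPM with CM, 4435 and 4243 with DM, and 4210 and 4341 with DM+Met. Of these markers 6 rose, among them Cd3g, Cd2, Cd5, Cd6 and Bcl11b, and 2 fell (Cd28 and Zap70) in DM against CM, beside 7.80% and 9.07% of all tested rows. Cd8a fell in DM (-1.72, adjusted p = 0.0323) and in DM+Met against CM (-1.76, adjusted p = 0.0317), and its calls were lost whichever library was left out. The natural killer receptor Klrb1c rose in DM+Met against CM (2.10, adjusted p = 0.0294, lost without any 1 of the CM and DM+Met libraries). Klrb1c had 0 reads in both CM libraries and passed the filter through dialyzed libraries alone, so its adjusted p is a description only. Of 15 markers of granulocytes, mast cells and basophils 4 were tested and limma called 0, with 0 at an unadjusted p below 0.05 and 0 by voom, and their summed level was 4.78 to 15.9 CPM. At an unadjusted p below 0.05 limma gave 4170, 1238 and 3870 rows over the whole table in the 3 comparisons. The part of these cells in the levels of the 10 genes was not tested.

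The rows most like each profile over the 6 libraries were sought among the tested rows outside the 10 genes, by Pearson's r. For the mean standardised profile of Mmp12, Ccl17 and Lpl they were Sun2 (0.999), Nfe2l1 (0.999), 4930523C07Rik (0.998), Tnfaip8 (0.998) and Frat2 (0.997). For that of H2-Aa, H2-Ab1, H2-Eb1 and Cd74 they were Sema4f (0.997), Chst11 (0.997), Eef2 (0.994), Tagln2 (0.994) and Msmo1 (0.994). For Ctse alone they were Jagn1 (0.991), Rps15a (0.990), Gh (0.989), Frrs1 (0.987) and Dusp3 (0.986). None of these rows belongs to the lists above. Such values over 6 libraries in 3 media are a description, and many rows share the same step between CM and the dialyzed media.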

How the data were processed

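The log2 values deposited by the authors are log2(CPM + 1) of reads scaled to a common library size by TMM, for 23282 gene rows in 6 libraries made with a 3′-end kit. TMM and CPM are stated in the methods, and the base and the added 1 were read from the equal steps of the values. These steps gave the reads behind each value, with at least 99.776% of values of up to 300 reads within 0.1 of a whole number. The submitters' processing notes name Bowtie2, bedtools and mm10. Annotation and strand handling are not given in the sources used here. Columns of other series numbered 0. Libraries of 1 medium differed far beyond sampling noise (chi-square per degree of freedom 18.2 to 35.9).

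A row was tested if it had 15 reads in all and 0.946 CPM (10 reads in a library of median depth) in 2 or more libraries. The 12770 rows were fitted with limma 3.58.1 in R 4.3.3 (3 media, no covariates, intensity trend, two-sided, Benjamini-Hochberg, threshold 0.05), the source of every adjusted p. The script was tested on simulated data. An exact permutation test of 2 against 2 libraries cannot go below p = 0.333 and was not run. Coordinates come from GENCODE M21 and promoter windows from RefSeq. The 10 genes and the lists were chosen with earlier results of these data known. Named beside them are defining markers, up to 4 called genes per list and comparison with the greatest change, and the 5 rows most like each profile. T cell markers without values, Fabp5, Il4ra, Il4, Il13, Csf2, Clec9a, Cd209a, Pax5, Retnla, Lyz1, Mmp1b, Gm20513 and Rn45s are outside this rule and were named after their values were seen. Some genes that the rule names are not reported here. Alternatives were other scalings, filters, pseudocounts and variance models, voom on recovered reads, a replicate block, fits of the media compared alone, and each library left out in turn.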

Additional observations from a re-analysis of the deposited data

How the results depend on the processing

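The number of rows called in DM against CM (2154) was 795 with only the media compared and 1329 without an intensity trend, and 541 to 1061 when 1 library was left out. In DM+Met against CM (1952) it was 1265 with no filter and 944 without a trend, and 268 to 1622 with 1 library left out. In DM+Met against DM (7) it was 55 when library totals were used, 27 for rows with 10 reads or more in each library, 21 with voom, 13 with a pseudocount of 5 and 2 with no filter. Limma called 0 there with only the media compared (1303 rows at an unadjusted p below 0.05), 0 without a trend (1192) and 0 to 0 with any 1 library left out (431 to 2006). Each fit without 1 library has fewer residual degrees of freedom. The library numbers did not pair the samples (correlations of deviations -0.03 to 0.005), and the replicate block gave 1947, 7 and 1797 calls.

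Library totals in place of TMM put the median of all rows at 0.338 in DM+Met against DM and 0.409 in DM+Met against CM, with 92.7% and 76.3% of the calls higher in place of 71.4% and 45.3%. Totals without Rn45s put it at 0.208 in DM against CM and 0.176 in DM+Met against CM, with 59.6% and 57.4% of the calls higher in place of 46.2% and 45.3%. On these scalings H2-Aa, H2-Eb1, Ccl17, Lpl and Cd74 changed sign in a comparison where they were not called. Of the changes of members under the alternatives, 418 stayed within the spread between libraries and 50 moved beyond it. The 58 calls of the other named genes were kept in 540 of 912 pairs of a call and an alternative and lost in 372, uncalled genes gained a call in 21, and no called value of either kind changed sign. Depth limits Ccl17 and Lpl in CM and Lyz2, Ciita, Csf1r and Adgre1 throughout. The spread between libraries of similar depth limits Mmp12 in CM (63 and 0 reads) and also Csf1r in DM+Met (1 and 107 reads).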
